A study of Mus musculus with 5 samples.

Results

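The Frizzled receptors are a family of cell-surface proteins that bind Wnt ligands, and the mouse genes Fzd1 to Fzd10 were followed here in cultured pancreatic cells. The members were all genes with these symbols, each read from the probe set annotated with that 1 symbol alone. All 10 were measured, among 19938 genes in all, and each had 1 probe set. RNA from 5 cultures was hybridised to Affymetrix whole-transcript arrays, which give 1 log2 signal per probe set. In the PDAC group, 3 cultures came from pancreatic ductal adenocarcinoma and had the genotype Pdx-1CreAPCL/+p53L/L. In the normal ductal group, 2 cultures labelled by cell type as normal duct cells had no floxed Apc allele and were titled Pdx-1Cre p53L/L for replicate 1 and Pdx-1 p53L/L for replicate 2. Both groups therefore carried a pair of floxed p53 alleles, and the Pdx-1Cre transgene drives Cre recombinase from a promoter active in the pancreatic lineage. The titles differ within groups: that of normal ductal replicate 2 names neither Cre nor duct, and that of PDAC replicate 3 adds mutant cell. Ages of the animals are not given in the labels. Each title calls its culture a biological replicate, without saying that the cultures came from separate animals. The p-values therefore speak only of the spread among 5 cultures.

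A Frizzled receptor has an outer cysteine-rich domain that grips the lipid of a Wnt ligand and a bundle of membrane-spanning segments that passes the signal to Dishevelled inside the cell. With the co-receptors Lrp5 or Lrp6 this stabilises beta-catenin, whose breakdown needs the scaffold protein Apc. With Ror1, Ror2, Ryk or the planar polarity proteins it acts on the cytoskeleton instead. The ligases Rnf43 and Znrf3 remove Frizzled proteins from the cell surface, and in human pancreatic cancer lines with mutant RNF43 growth has been found to need FZD5. By sequence the family divides into the groups Fzd1, Fzd2 and Fzd7; Fzd5 and Fzd8; Fzd4, Fzd9 and Fzd10; and Fzd3 and Fzd6.

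In the GRCm38.p6 assembly the member genes are spread over several chromosomes. Fzd5 lies at chr1:64730558-64737750 and Fzd7 at chr1:59482147-59486955. Chromosome 5 holds Fzd1 at chr5:4753839-4758216, Fzd10 at chr5:128601106-128604093 and Fzd9 at chr5:135248938-135251047. Fzd4 lies at chr7:89404366-89410110, Fzd2 at chr11:102604431-102608058 and Fzd6 at chr15:39006149-39038192. Fzd3 lies at chr14:65192441-65262463, and the place of Fzd8 is given with its values. Fzd3 spans 70.0 kb and Fzd6 32.0 kb, and the other members span between 2.11 kb (Fzd9) and 7.19 kb (Fzd5).

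RefSeq promoter sequence of GRCm38.p6 was matched for 6 of the 10 members: Fzd1, Fzd4, Fzd5, Fzd7, Fzd9 and Fzd10. In the 250 bases before the start, these promoters held between 51.2% (Fzd1) and 76.4% (Fzd5, Fzd9 and Fzd10) G and C, against a median of 52.4% over 32851 promoters. Their ratio of observed to expected CpG lay between 0.65 (Fzd7) and 1.18 (Fzd9), against a median of 0.37. The windows were searched on both strands for 4 words bound by TCF/LEF factors (CTTTG followed by AA, AT, TA or TT) and for the E-box word CACCTG, bound by Snail and Zeb factors. The words do not overlap each other. Fzd7 was the 1 member with a TCF/LEF word, which 14.8% of all promoters held. Fzd5 was the 1 member with the E-box word, which 17.2% of all promoters held. These 2 promoters are shown because each holds a word that was searched for. Capitals mark the word as it reads on the printed strand: AACAAAG in Fzd7 is CTTTGTT on the other strand and begins 130 bases before the start, and CAGGTG in Fzd5 is CACCTG on the other strand and begins 20 bases before it. The Fzd7 stretch is chr1:59481897-59482146 on the plus strand and the Fzd5 stretch is chr1:64737751-64738000 on the minus strand, both 5′ to 3′.
Fzd7: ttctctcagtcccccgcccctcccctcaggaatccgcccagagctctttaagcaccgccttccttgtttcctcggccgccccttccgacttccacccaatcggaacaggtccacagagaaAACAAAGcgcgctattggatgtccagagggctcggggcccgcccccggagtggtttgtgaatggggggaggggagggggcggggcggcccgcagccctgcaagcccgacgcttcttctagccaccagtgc
Fzd5: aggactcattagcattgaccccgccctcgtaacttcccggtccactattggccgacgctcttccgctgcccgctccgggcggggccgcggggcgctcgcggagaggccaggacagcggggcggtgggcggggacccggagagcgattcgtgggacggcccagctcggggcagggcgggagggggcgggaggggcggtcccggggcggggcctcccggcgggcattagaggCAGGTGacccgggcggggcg
The matches describe the letters and do not show that a factor binds there.

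As a check of the genotypes, Apc had a log2 signal of 9.00, 9.06 and 8.58 in PDAC cultures, against 9.23 and 9.02 in normal ductal cultures. The difference of -0.25 (SE 0.20) had an adjusted p = 0.590 by limma. The labels do not say which exon is floxed, so a probe set that may lie outside it does not check the deletion, and Trp53 was not analysed here. Against the labels, 7 measured duct markers averaged 7.17, 8.57 and 10.44 in PDAC replicates 1, 2 and 3 and 11.77 and 11.44 in normal ductal replicates 1 and 2. Of the PDAC cultures, replicate 1 had the duct keratin Krt19 at 6.47, so the ductal label is not borne out by that marker there. Normal ductal replicate 2 stood apart, with 12.26 for the acinar enzyme gene Ctrb1, 10.22 for glucagon (Gcg) and 8.87 for the endothelial cadherin Cdh5. Replicate 1 had 6.08, 7.33 and 6.47. Replicate 2 was the highest culture for 2 of 4 measured acinar markers, 5 of 5 islet and 5 of 6 endothelial markers. The acinar marker Cela1 went the other way, at 7.28 there, against 7.45, 7.89 and 7.44 in PDAC cultures. Normal ductal replicate 1 also differed from the PDAC cultures, where Gcg had 4.51, 4.63 and 4.31. Every PDAC culture stood below both normal ductal cultures for 4 of the 5 islet and 5 of the 6 endothelial markers, beside 12.8% of all genes. The same held for 5 of the 7 duct, 4 of the 6 leukocyte and 1 of the 4 acinar markers. It held for 0 of the fibroblast and 0 of the mesothelial markers. The leukocyte marker list averaged 6.78 in normal ductal replicate 2 and between 5.18 and 6.06 in the other cultures. Of its 6 markers 4 were highest in replicate 2, among them Lyz2 (8.52, against 5.67 in normal ductal replicate 1). The markers did not move as 1: Ptprc had 4.59 in both normal ductal cultures and in PDAC replicates 1 and 2. Cd14 was highest in normal ductal replicate 1, at 9.52 against 9.43 in replicate 2. The mesothelial list averaged 5.55, 6.05 and 8.55 in PDAC replicates 1, 2 and 3 and 6.81 and 7.35 in normal ductal replicates 1 and 2, so PDAC replicate 3 held the highest value. Of its 6 markers 2 were highest in that culture, Upk3b and Upk1b. In bulk cultures, fewer cells of a type and less RNA per cell cannot be told apart.

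The comparison of PDAC with normal ductal cultures asked whether the set of Wnt receptors differs between tumour cells with a floxed Apc allele and duct cells that lack it. Fzd2 separated the groups, each PDAC culture lying above the normal ductal pair, by 2.62-fold on average, and had the largest mean difference of the family. Fzd4 and Fzd5 had the lowest PDAC means relative to normal ductal, at 0.58 and 0.65 times, with overlapping groups. The mean differences split evenly, 5 members above 0 and 5 below, with a median log2 fold change of 0.05 beside 0.01 over all genes.

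Tested with limma and adjusted over all genes by Benjamini-Hochberg, the family had 0 of its 10 members called, with adjusted p between 0.307 (Fzd2) and 0.948 (Fzd6). Of all genes 0.00502% were called higher and 0.0502% lower, so a count of 0 among 10 members is near the background. At an unadjusted p under 0.05 the count was 1 higher (Fzd2) and 0 lower, where 6.5% of all genes were higher and 6.86% lower. The groups did not overlap for 1 member in the higher direction and for 0 in the lower, where 13.6% and 12.8% of all genes were so. These shares for the members lie near those for all genes.

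**Figure D1:**
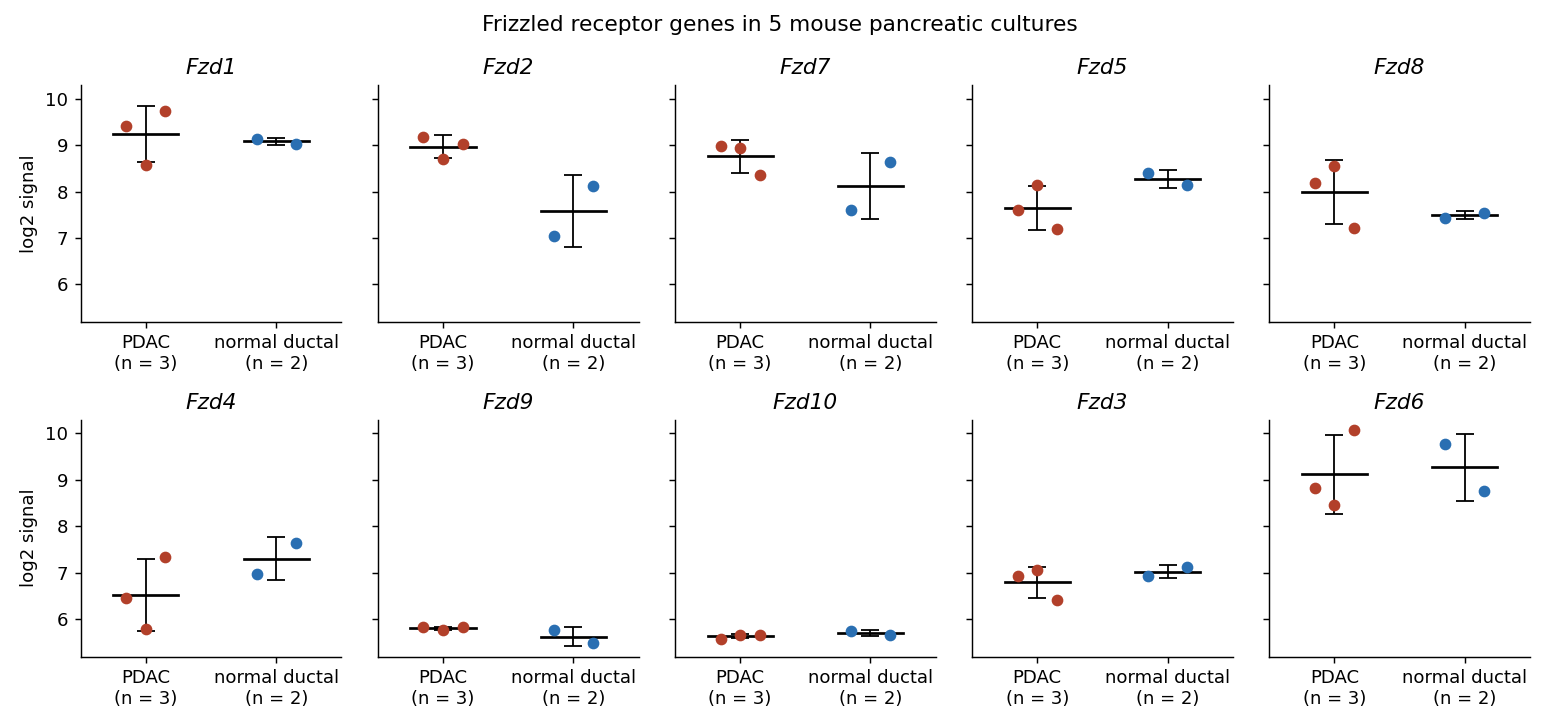
Log2 signal of the 10 Frizzled genes, with a point for each of 3 PDAC cultures (red) and 2 normal ductal cultures (blue), the mean as a line and the SD as a bar. The groups part for Fzd2 alone; Fzd9 and Fzd10 lie below 6 in every culture.

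In the group of Fzd1, Fzd2 and Fzd7, the receptors differed in how they varied. Fzd2, which in other tissues binds Wnt5a and works with Ror2, had log2 signals of 9.18, 8.70 and 9.03 in PDAC cultures, against 7.03 and 8.13 in normal ductal cultures. Normal ductal replicate 1 was the lowest of the 5, and the PDAC cultures spanned 0.48, a range wider than that of 71.1% of all genes. The log2 fold change was 1.39 (SE 0.40, 95% interval 0.28 to 2.50), from means of 8.97 ± 0.25 (SD, n = 3) in PDAC and 7.58 ± 0.77 (SD, n = 2) in normal ductal cultures, with an adjusted p = 0.307 by limma (0.0257 unadjusted). Fzd2 kept its sign in 13 of 13 alternative analyses, but most of these could not have reversed it. As the groups did not overlap, leaving out 1 culture could not change the sign. A filter on the lowest 25% of genes, 2 variance models and the mean of all probe sets left the log2 fold change at 1.39. In alternatives that kept both normal ductal cultures, adjusted p by limma lay between 0.177 and 0.574.

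Markers of fibroblasts and stellate cells moved with Fzd2 in the normal ductal group. All 8 listed markers were measured, and the log2 of their summed signal was 14.01, 13.36 and 13.25 in PDAC cultures, 10.50 in normal ductal replicate 1 and 13.47 in replicate 2. In normal ductal replicate 1, 6 of the 8 were at their lowest. Every PDAC culture stood above both normal ductal cultures for 2 of the 8, Pdgfra and the collagen gene Col1a1, and for the other 6 the groups overlapped. Over all genes, 13.6% stood above in this way. Pdgfra, the alpha receptor of platelet-derived growth factor, had 10.32, 9.96 and 10.27 in PDAC cultures, against 6.63 and 9.65 in normal ductal cultures. The matrix gene Dcn did not follow, with 5.58, 9.10 and 10.48 in PDAC cultures, against 7.58 and 11.39 in normal ductal cultures. Fzd2 in normal ductal replicate 2 lay 1.09 above replicate 1 and still below every PDAC culture. Without replicate 1 the log2 fold change of Fzd2 was 0.84 (adjusted p = 0.273, limma), and without replicate 2 it was 1.94 (adjusted p = 0.0983). Array signals have no 0, so no marker could be called absent, and the part of these markers in the difference was not tested.

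Fzd7, a receptor studied in stem cells and in gut tumours, had 8.99, 8.94 and 8.35 in PDAC cultures, against 7.61 and 8.63 in normal ductal cultures. PDAC replicate 3 fell between the normal ductal values, so the groups overlapped, and normal ductal replicate 1 was again the lowest. The log2 fold change was 0.64 (SE 0.41, 95% interval -0.51 to 1.79). Fzd1, the close relative of Fzd2 and Fzd7, had 9.41, 8.58 and 9.73 in PDAC cultures, against 9.14 and 9.02 in normal ductal cultures. Its PDAC cultures lay on both sides of the normal ductal pair, which differed by 0.11, and the log2 fold change of 0.16 had a 95% interval of -0.94 to 1.27.

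Fzd5 and Fzd8, which form a sequence group of their own, had mean differences of opposite sign. Fzd5, a receptor of gut and other epithelia, had 7.61, 8.14 and 7.19 in PDAC cultures, against 8.40 and 8.14 in normal ductal cultures. PDAC replicate 2 equalled normal ductal replicate 2 to within 0.01 and the other PDAC cultures were lower. The log2 fold change was -0.62 (SE 0.33, 95% interval -1.55 to 0.31). Fzd8, at chr18:9212856-9216201, had 8.19, 8.55 and 7.23 in PDAC cultures, against 7.43 and 7.55 in normal ductal cultures. PDAC replicates 1 and 2 were the highest of the 5 cultures and replicate 3 the lowest. The log2 fold change was 0.50 (SE 0.45, 95% interval -0.77 to 1.77). Without PDAC replicate 3, the lowest culture, it was 0.88 with an adjusted p = 0.254 by limma (0.0156 unadjusted). Without PDAC replicate 1 it was 0.40 (unadjusted p = 0.533, limma), and without PDAC replicate 2 it was 0.22 (unadjusted p = 0.634).

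Because probe sets differ in brightness, the signals of 2 genes were compared only as the shift of their log2 ratio from the normal ductal mean. For Fzd8 minus Fzd5 this shift was 1.36, 1.19 and 0.82 in PDAC cultures, against -0.19 and 0.19 in normal ductal cultures. The groups did not overlap for this ratio, which stood 1.12 ± 0.28 (SD, n = 3) above the normal ductal mean. Of 8 such ratios within the sequence groups 4 did not overlap. Taken singly, 26.4% of all genes did not, but that share is no background for ratios. No share was counted over other gene pairs, and several of the ratios share a gene. Of these 4, the ratios of Fzd7 and Fzd1 to Fzd2 share Fzd2, which was itself separated, with shifts of -0.75 ± 0.46 and -1.23 ± 0.41 (SD, n = 3 each). The other is that of Fzd9 to Fzd10, whose low signals cannot be set against background, and no size is given for it. The ratios were chosen with the values known and were not tested.

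Fzd4, which also answers to the non-Wnt ligand norrin, had 6.45, 5.78 and 7.33 in PDAC cultures, against 6.97 and 7.63 in normal ductal cultures. PDAC replicate 3 lay between the normal ductal values and the other PDAC cultures below both. The log2 fold change was -0.78 (SE 0.55, 95% interval -2.33 to 0.77). Its partners varied without following the groups. Ndp, the norrin gene, had 4.47, 4.77 and 4.31 in PDAC cultures, against 4.47 and 3.91 in normal ductal cultures. Tspan12, which strengthens the response to norrin, had 8.16, 6.12 and 6.40 in PDAC cultures, against 7.59 and 7.83 in normal ductal cultures. Adgra2, which joins Reck in the Wnt7 response, had 8.97, 9.08 and 8.65 in PDAC cultures, against 6.57 and 8.70 in normal ductal cultures, and its low value was in the same culture as that of Fzd2.

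Fzd9 and Fzd10, the relatives of Fzd4, barely varied. Fzd9 had 5.82, 5.77 and 5.82 in PDAC cultures, against 5.77 and 5.48 in normal ductal cultures. Fzd10 had 5.58, 5.66 and 5.66 in PDAC cultures, against 5.74 and 5.66 in normal ductal cultures. Their ranges over the 5 cultures were 0.34 and 0.16, and for both the groups overlapped or touched. The array medians were between 5.90 and 6.02, and no detection calls came with the values, so whether either gene was expressed cannot be read from them. Equal values on different arrays occurred for 3 members, Fzd3, Fzd9 and Fzd10.

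Fzd3 and Fzd6 are the receptors best known from planar cell polarity. Fzd6 had 8.83, 8.46 and 10.07 in PDAC cultures, against 9.78 and 8.75 in normal ductal cultures. It was highest in PDAC replicate 3 and next in normal ductal replicate 1, and its difference between groups of -0.15 had the widest 95% interval of all 10 members, -1.97 to 1.66. Fzd3 had 6.92, 7.05 and 6.42 in PDAC cultures, against 6.92 and 7.13 in normal ductal cultures, with PDAC replicate 3 the lowest. The log2 fold change of Fzd3 was -0.23 (SE 0.23, 95% interval -0.89 to 0.43).

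**Figure D2:**
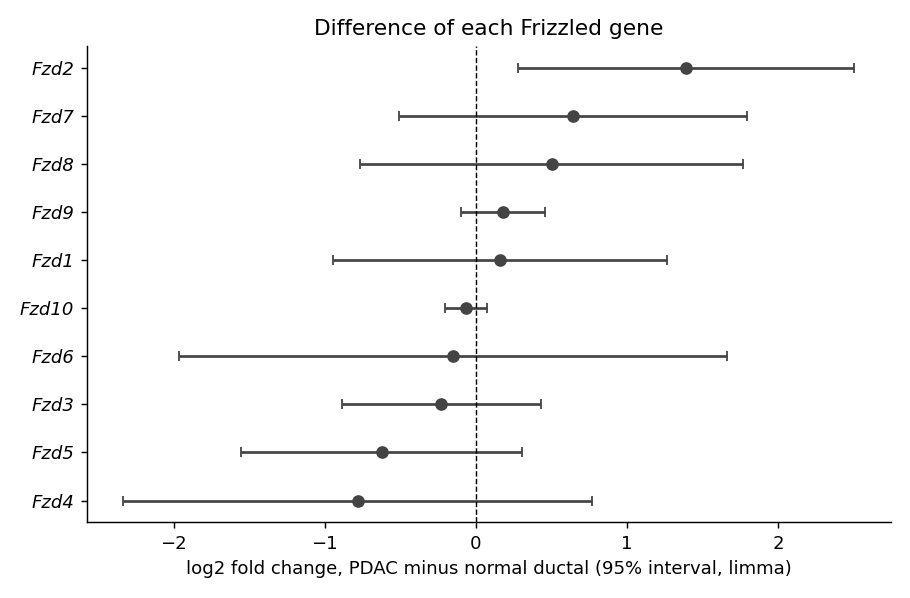
Log2 fold change, PDAC minus normal ductal, of each Frizzled gene as a point with its 95% limma interval as a bar. The interval of Fzd2, 0.28 to 2.50, lies above 0 before adjustment for the number of genes, and the others span 0.

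Variation among the PDAC cultures was wide for most members. The PDAC range exceeded the median over all genes, 0.27, for 8 of the 10 members, all but Fzd9 and Fzd10. It exceeded the difference of the group means for 7 members, the exceptions being Fzd2, Fzd7 and Fzd9. The share of all genes for which it did so was not counted. A small difference is easily exceeded, as for Fzd10 (range 0.08, difference -0.07). The PDAC range was 1.61 for Fzd6, 1.55 for Fzd4, 1.32 for Fzd8 and 1.15 for Fzd1. Its median was 0.42 over the brighter genes, those whose mean lay above the median gene's. The PDAC range of Fzd6 was wider than that of 96.1% of all genes tested, and that of Fzd4 wider than 95.8%. Between the normal ductal cultures Fzd2, Fzd6 and Fzd7 differed by 1.09, 1.03 and 1.02, beside a median of 0.20 over the brighter genes.

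PDAC replicate 3 lay outside the other 4 cultures for 5 members. It was above them for Fzd1 and Fzd6 and below them for Fzd3, Fzd5 and Fzd8, while 16.1% of all genes lay above and 17.7% below in that culture. Of the 8 measured genes in the list of beta-catenin targets, 2 were highest in this culture, Axin2 and Sp5, and 1 was lowest, Myc, with 11.84, 11.38 and 10.48 in PDAC cultures, against 11.38 and 11.35 in normal ductal cultures. The other 5 (Nkd1, Lef1, Ccnd1, Cd44 and Sox9) were neither. Lgr5 and Rnf43, which beta-catenin is also known to switch on and which stand in the list of Frizzled turnover, were highest there too. Axin2, the scaffold gene that serves as a general readout of beta-catenin, had 6.39, 6.45 and 8.42 in PDAC cultures, against 6.56 and 6.56 in normal ductal cultures. Lgr5, a receptor of R-spondins and a stem cell marker, had 5.18, 4.80 and 9.17 in PDAC cultures, against 5.67 and 5.48 in normal ductal cultures. Rnf43, the ligase that removes Frizzled proteins, had 6.28, 5.79 and 8.46 in PDAC cultures, against 6.69 and 6.42 in normal ductal cultures.

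As these are values of 1 culture they have no replicate check. Between groups, the log2 fold change was 0.52 (SE 0.76) for Axin2, 0.81 (SE 1.58) for Lgr5 and 0.28 (SE 0.93) for Rnf43, and limma gave adjusted p = 0.759, 0.834 and 0.920 in that order. Without PDAC replicate 3 each of these differences turned negative, at -0.14, -0.58 and -0.53. Znrf3, the sister ligase of Rnf43, did not share the pattern, with 8.32, 8.22 and 8.22 in PDAC cultures, against 8.22 and 7.83 in normal ductal cultures. In PDAC replicate 3 the mean of the 7 duct markers was also the highest of the PDAC cultures, at 10.44, and the mesothelial mean of 8.55 was the highest of all 5. Among the 6 mesothelial markers 2 were highest there, the uroplakin genes Upk3b (10.41, against 5.55 to 5.72 in the other 4 cultures) and Upk1b (10.77, against 4.63 to 7.58). Of the rest, 2 were highest in normal ductal replicate 1 (Msln and Krt5) and 2 in normal ductal replicate 2 (Lrrn4 and Wt1). Msln had 11.18 in PDAC replicate 3 and 11.25 in normal ductal replicate 1. The part of these markers in the Frizzled values was not tested.

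**Figure D3:**
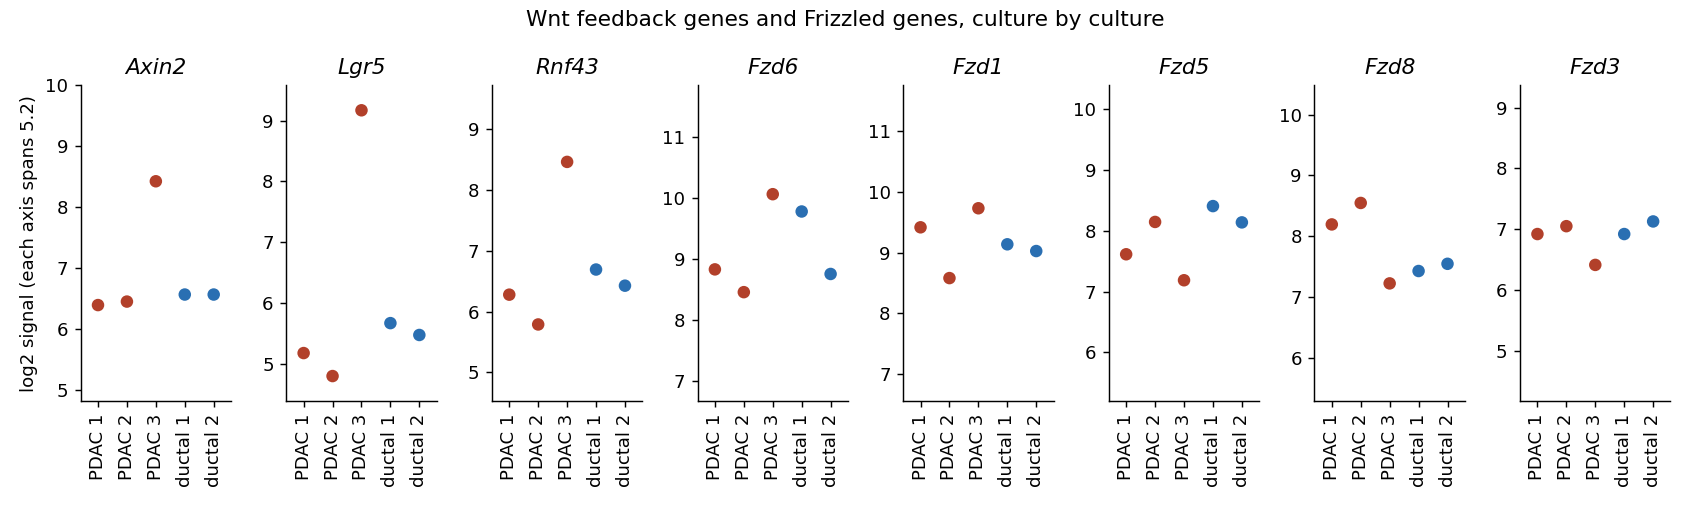
Log2 signal of 3 Wnt feedback genes and 5 Frizzled genes in each PDAC (red) and normal ductal (blue) culture, with all panels on the same span. Axin2, Lgr5, Rnf43, Fzd6 and Fzd1 are highest in PDAC replicate 3, where Fzd5, Fzd8 and Fzd3 are lowest.

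By the pattern over the 5 cultures, 3 genes were closest to Fzd2, the 1 member whose range exceeded 2. The measure was the root mean square difference of the signals, each gene centred on its own mean, among 9723 brighter genes. Fkbp7, a chaperone of the endoplasmic reticulum, differed by 0.07, Pxylp1, a phosphatase that acts on proteoglycan sugars, by 0.12, and Lrig3, a membrane protein with leucine-rich repeats, by 0.15. Fkbp7 had 10.07, 9.61 and 9.92 in PDAC cultures, against 8.11 and 9.12 in normal ductal cultures. With 5 cultures and many candidates some genes will lie this close, and the likeness is a description.

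**Figure D4:**
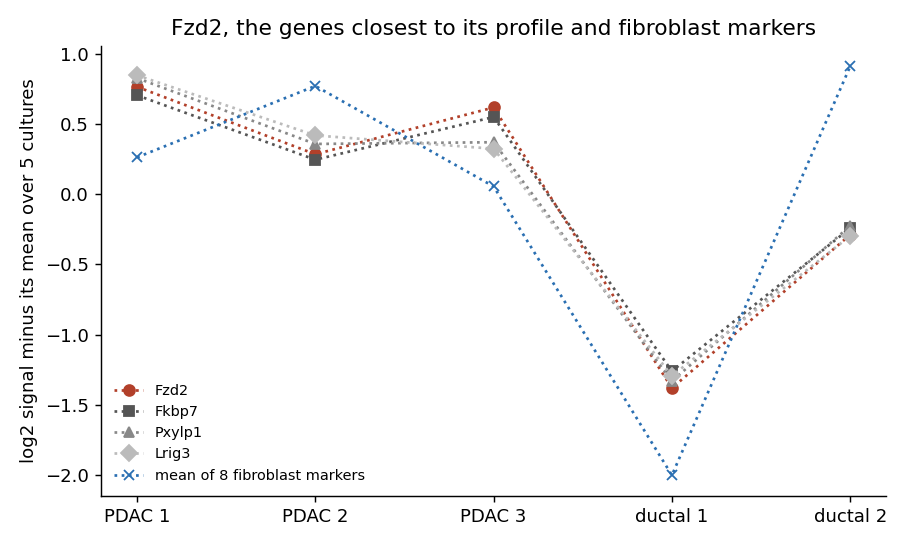
Log2 signal minus its mean over the 5 cultures for Fzd2, the 3 genes closest to its profile and the mean of 8 fibroblast markers, with PDAC cultures left of normal ductal cultures. All 5 lines are lowest in normal ductal replicate 1. In normal ductal replicate 2 the marker mean is at its highest, at 9.93, though only 1 of the 8 markers (Dcn) is highest there. The log2 of the summed marker signal is highest in PDAC replicate 1, at 14.01, against 13.47 in normal ductal replicate 2. Fzd2 in normal ductal replicate 2 stays below its PDAC values.

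The other parts of the Wnt pathway were read from 10 lists with 93 measured genes. Limma called 0 of them at an adjusted p under 0.05, and at an unadjusted p under 0.05 7 stood higher (7.53%, beside 6.5% of all genes) and 12 lower (12.9%, beside 6.86%). Every PDAC culture stood above both normal ductal cultures for 18 of the 93 (19.4%, beside 13.6% of all genes) and below both for 14 (15.1%, beside 12.8%). Counts of single lists rest on few genes and are read against the same shares of all genes. The median log2 fold change of the 93 was 0.02, beside 0.01 over all genes.

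Among the co-receptors and other Wnt receptors (7 measured), the counts at an unadjusted p under 0.05 were 1 higher and 2 lower. Over all genes, 6.5% were higher and 6.86% lower. Lrp5, a co-receptor of the beta-catenin route, had 8.69, 8.40 and 8.84 in PDAC cultures, against 9.90 and 9.24 in normal ductal cultures, with no overlap (log2 fold change -0.93, SE 0.27, adjusted p = 0.311 by limma). Lrp6, the other co-receptor, had 9.64, 9.27 and 9.24 in PDAC cultures, against 9.30 and 9.23 in normal ductal cultures. The groups overlapped for Lrp6 and its log2 fold change was 0.12 (SE 0.16).

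The kinase-like receptors Ror1 and Ror2, which bind Wnt5a, had differences of opposite sign. Ror2 had 9.04, 8.59 and 8.36 in PDAC cultures, against 7.10 and 7.98 in normal ductal cultures (log2 fold change 1.13, SE 0.37, adjusted p = 0.347 by limma). Ror1 had 7.12, 7.32 and 9.04 in PDAC cultures, against 9.54 and 10.46 in normal ductal cultures (-2.17, SE 0.76, adjusted p = 0.364). Neither gene's groups overlapped, and normal ductal replicate 1 was the lowest culture for Ror2 as it was for Fzd2. Ryk, another receptor of this kind, had 10.67, 10.66 and 10.38 in PDAC cultures, against 9.96 and 10.29 in normal ductal cultures.

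The genes of Wnt secretion and lipid handling, 3 in all, separated the groups, each PDAC culture lying above the normal ductal pair. Such a separation held for 13.6% of all genes. Each of the 3 had an unadjusted p under 0.05 by limma, where 6.5% of all genes were higher. Porcn, which attaches the lipid that Frizzled receptors grip, had 8.36, 7.41 and 7.80 in PDAC cultures, against 6.66 and 6.75 in normal ductal cultures. Wls, which carries lipid-bearing Wnt proteins to the surface, had 10.56, 10.56 and 10.53 in PDAC cultures, against 10.05 and 9.81 in normal ductal cultures. Notum, an enzyme that removes the lipid again and was named after its values were seen, had 5.94, 6.66 and 6.67 in PDAC cultures, against 5.65 and 5.10 in normal ductal cultures. The log2 fold changes were 1.15 (SE 0.32), 0.62 (SE 0.10) and 1.05 (SE 0.33), and limma's adjusted p = 0.297, 0.175 and 0.331 for Porcn, Wls and Notum.

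Of 19 Wnt ligands, by unadjusted p 0 were higher and 3 lower, where 6.5% of all genes were higher and 6.86% lower. Wnt11, a ligand of the planar polarity route, had 5.99, 6.00 and 6.22 in PDAC cultures, against 7.46 and 7.49 in normal ductal cultures (log2 fold change -1.41, SE 0.09, adjusted p = 0.102 by limma). Wnt7a, an epithelial ligand, had 5.08, 5.85 and 7.40 in PDAC cultures, against 10.14 and 9.27 in normal ductal cultures (-3.59, SE 0.82, adjusted p = 0.245). For Wnt11 the adjusted p lay under 0.05 in some alternatives, at 0.0386 after quantile normalization, 0.0368 when arrays shared a median and 0.0486 without normal ductal replicate 1. In these alternatives 42, 80 and 1287 of all genes were called, against 11 in the fit reported.

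Secreted antagonists, several of which carry a Frizzled-like domain that traps Wnt proteins, counted 1 higher and 0 lower of 10 by unadjusted p. Over all genes, 6.5% were higher and 6.86% lower. For 4 of the 10 every PDAC culture stood above both normal ductal cultures, as for 13.6% of all genes. Sfrp2 had 12.87, 11.60 and 6.80 in PDAC cultures, against 6.43 and 6.12 in normal ductal cultures, so its 2 high values lay in PDAC replicates 1 and 2. Sfrp4 had 6.38, 6.84 and 8.18 in PDAC cultures, against 5.47 and 5.32 in normal ductal cultures. Dkk2, which blocks the Lrp co-receptors, had 8.04, 9.11 and 9.29 in PDAC cultures, against 7.88 and 7.52 in normal ductal cultures. The log2 fold changes of Sfrp2, Sfrp4 and Dkk2 were 4.15 (SE 2.09), 1.74 (SE 0.61) and 1.12 (SE 0.46), with adjusted p = 0.535, 0.371 and 0.440 by limma.

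Inside the cell, Dishevelled and its transducers (12 measured) counted 1 higher and 4 lower by unadjusted p, where 6.5% of all genes were higher and 6.86% lower. Dvl2, a Dishevelled protein, had 8.26, 8.84 and 8.33 in PDAC cultures, against 7.79 and 7.49 in normal ductal cultures. Daam1, a formin that links Dishevelled to actin, had 7.96, 7.74 and 7.45 in PDAC cultures, against 9.37 and 8.91 in normal ductal cultures (log2 fold change -1.42, SE 0.23, adjusted p = 0.185 by limma). Dact1, a Dishevelled-binding protein, was high in PDAC replicate 1 alone, with 8.60, 6.87 and 6.59 in PDAC cultures, against 6.51 and 7.45 in normal ductal cultures. The planar cell polarity core (10 measured) counted 0 higher and 1 lower, and the cadherins Celsr1 and Celsr2 differed by -1.06 (SE 0.49) and -0.86 (SE 0.27) on the log2 scale.

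Genes that set how much Frizzled stays on the surface were read from 9 measured for turnover and 11 for traffic. By unadjusted p they counted 1 higher and 1 lower in all, where 6.5% of all genes were higher and 6.86% lower. Lgr6, an R-spondin receptor, had 8.46, 8.18 and 8.05 in PDAC cultures, against 7.34 and 7.31 in normal ductal cultures (log2 fold change 0.90, SE 0.15, adjusted p = 0.190 by limma). Rspo2, an R-spondin, had 6.41, 6.16 and 4.84 in PDAC cultures, against 4.55 and 4.68 in normal ductal cultures. Gpc3, a glypican, had 4.65, 4.80 and 4.61 in PDAC cultures, against 5.31 and 6.24 in normal ductal cultures. Apcdd1, a Wnt inhibitor of the membrane, and Lypd6, an enhancer of Lrp6 signalling, differed by 0.90 (SE 0.34) and 1.21 (SE 0.51) on the log2 scale, and every PDAC culture stood above both normal ductal cultures for each.

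The target genes of beta-catenin (8 measured) counted 0 higher and 1 lower by unadjusted p, where 6.5% of all genes were higher and 6.86% lower. The adhesion receptor Cd44 had 10.66, 10.20 and 10.81 in PDAC cultures, against 11.63 and 11.40 in normal ductal cultures (log2 fold change -0.96, SE 0.22, adjusted p = 0.251 by limma). Nkd1, a feedback inhibitor of Dishevelled, had 6.74, 7.75 and 7.68 in PDAC cultures, against 6.27 and 6.97 in normal ductal cultures, with overlapping groups.

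**Figure D5:**
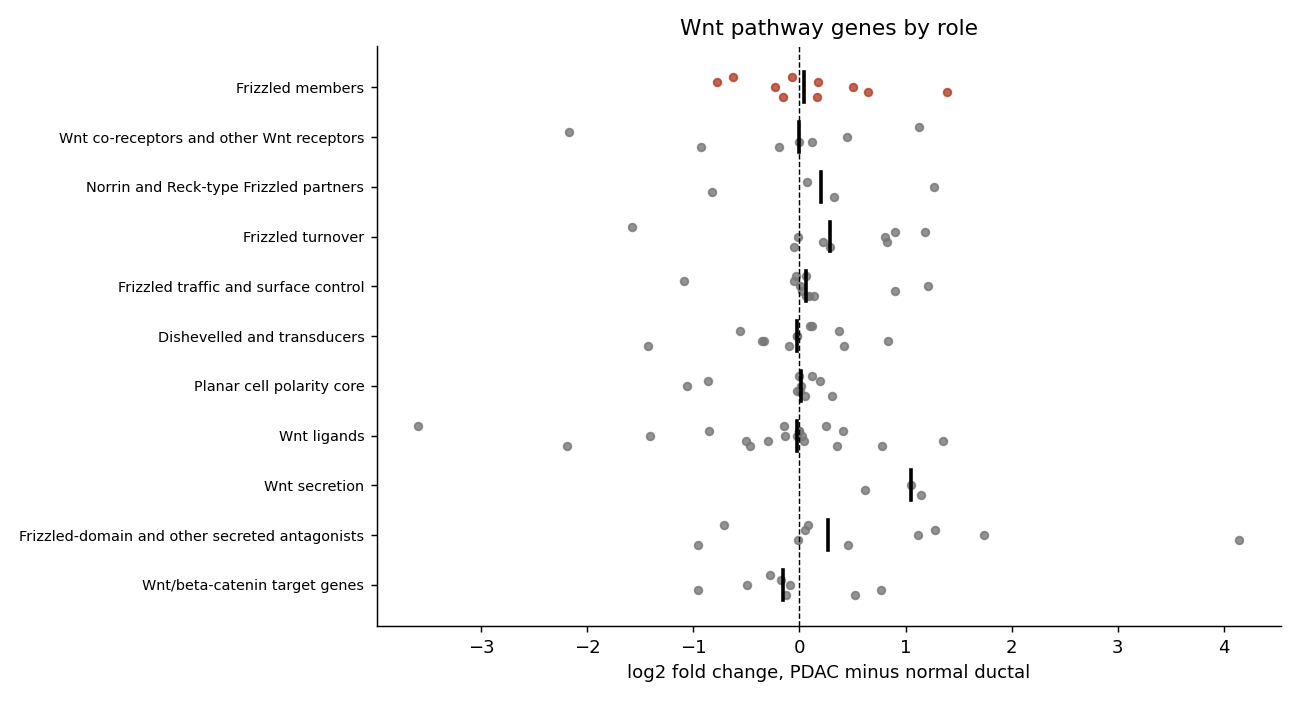
Log2 fold change, PDAC minus normal ductal, of each measured gene (points) in the Frizzled family (red) and 10 other Wnt lists (grey), with the median of each list as a black line. The Frizzled genes spread on both sides of 0 around a median of 0.05. The 3 genes of Wnt secretion and lipid handling, which include the lipid-removing Notum, all lie above 0.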

How the data were processed

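Per the labels' protocols, RNA was amplified, labelled with biotin and hybridised to arrays from cells kept in 10% serum for fewer than 6 passages. The authors deposited log2 signals for 35556 probe sets, processed with Transcriptome Analysis Console 1.0.0.234 and mm10, per the submitters' processing notes. Background correction, normalization and probe summary are not stated in any source used here, and the log2 base was read from the values (0.73 to 13.9), so another base would alter fold changes.

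The platform annotation named the probe sets: 21789 had 1 symbol, 1621 several and 12146 none here. The probe set with the highest mean stood for each of 19938 genes. All genes were fitted with limma 3.58.1 in R 4.3.3 (lmFit, eBayes with an intensity trend, two-sided, Benjamini-Hochberg over all genes, threshold 0.05), PDAC minus normal ductal, and the script was tested on simulated data. Descriptions and plots used Python 3.11.15.

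The members, lists and tests were chosen with earlier results of these data known. Beyond the 10 members the text names, in each list, the 2 genes with the smallest p and the widest-ranging gene, a fixed set (Lrp5, Lrp6, Ror1, Ror2, Ryk, Rnf43, Znrf3, Tspan12, Ndp, Axin2, Apc and Trp53), and the 3 genes closest in profile to any member with a range over 2. Mesd, Tcf7 and Trp53 were not analysed here. Alternatives were 2 other scalings, a filter on the lowest 25% of genes, 2 variance models, the mean of all probe sets, array weights, a block for the replicate number and leaving out each culture.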

Additional observations from a re-analysis of the deposited data

How the results depend on the processing

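Over 13 alternatives, 0 Frizzled members were called by limma at an adjusted p under 0.05 in either direction, as in the fit reported (by unadjusted p under 0.05, 1 was higher and 0 lower). With the replicate block or without any 1 PDAC culture 0 of all genes were called, so the members' count could not be other than 0 there. In the other alternatives between 3 and 80 genes were called, except for 1287 (6.46%) without normal ductal replicate 1 and 990 (4.97%) without replicate 2, against 11 in the fit reported. By unadjusted p between 4.68% and 13.5% of all genes were higher and between 4.99% and 13.5% lower. The unadjusted count of higher members was 2 with quantile normalization, which added Fzd9, and between 0 and 1 with 1 culture left out (0 without PDAC replicate 1 or 2). The unadjusted count of lower members was 0 to 1, the 1 being Fzd5 without PDAC replicate 2. The 1 member counted as higher was Fzd8, not Fzd2, without PDAC replicate 3, and Fzd9 without normal ductal replicate 1. In fits without a normal ductal culture the lone remaining one is assumed to vary like the PDAC cultures.

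Of 46 named genes, 38 kept the sign of their log2 fold change in every alternative run. None of the 46 was called in the fit reported, where the lowest adjusted p was 0.102 (Wnt11, limma). The filter and the 2 variance models leave a log2 fold change as it is. Leaving out 1 culture cannot reverse a gene whose groups do not overlap. A kept sign is therefore a weak check for many of these genes. Fzd1 turned to -0.082 with the replicate block, and ranged from -0.082 to 0.49 with 1 culture left out. Fzd6 ranged from -0.66 to 0.36 with 1 culture left out, turning positive without PDAC replicate 2 or normal ductal replicate 1. Fzd10 turned to 0.017 with quantile normalization and 0.027 when arrays shared a median, so its sign depends on the scaling. Lgr5 turned to -0.58, Axin2 to -0.14 and Rnf43 to -0.53 with the replicate block, and Rnf43 to -0.00041 with array weights. With 1 culture left out, Lgr5 ranged from -0.58 to 1.60, Axin2 from -0.14 to 0.87, Rnf43 from -0.53 to 0.81, Dact1 from -0.25 to 0.84 and Lrp6 from -0.0083 to 0.19. Besides Wnt11, without normal ductal replicate 1 Gpc3 (-1.55, adjusted p = 0.0262) and Wls (0.74, adjusted p = 0.0291) passed the limma threshold, as did 1287 genes in all. A common array median moved the median of all genes from 0.01 to 0.10, and quantile normalization moved it to 0.04.

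The labels give replicates 1 and 2 in both groups, but do not say whether equal numbers pair the cultures. Across genes, the difference of replicate 1 from 2 in PDAC correlated at -0.14 with that in normal ductal cultures. As it rests on 1 difference in each group, this value cannot settle whether cultures were paired. The replicate block leaves PDAC replicate 3 without a partner. With the replicate block Fzd2 had a log2 fold change of 1.36 (adjusted p = 0.570, limma), and Fzd8 was the 1 member with an unadjusted p under 0.05. The number of arrays limits the precision, and without detection calls the low signals of Fzd9, Fzd10 and Ndp cannot be set against background. The same holds for other values near or under the array medians of 5.90 to 6.02. Among them are Gpc3 and Wnt11 in PDAC cultures, Rspo2 and Notum in normal ductal cultures, and Lgr5 outside PDAC replicate 3.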
